A study of Homo sapiens with 3 samples.

Results

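The 37 genes described here encode the proteins that carry glucose into the cell, the enzymes of glycolysis, of gluconeogenesis and of the pentose phosphate pathway, and the kinases that set the pace of these routes. They were chosen by gene symbol from the 25242 usable symbols of the deposited files, and all 37 were found. The lactate dehydrogenases were left out. RNA of 3 cultures was sequenced, with 1 library each (n = 1). The parental library came from untreated HepG2 cells, a human hepatocellular carcinoma line. The HepG2/metR library came from HepG2 cells that had survived metformin, an inhibitor of mitochondrial complex I, for more than 5 months. The last came from HepG2/metR cells kept for 24 h in 40 mM oxamate, which blocks lactate dehydrogenase. The study uses HepG2/metR as a hyper-glycolytic, lactate-producing model and oxamate to lower its lactate. Whether the HepG2/metR culture was a single clone, and whether metformin was still in the medium at harvest, is not given in the sources used here.

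Glycolysis splits glucose into pyruvate and yields ATP, and gluconeogenesis, a task of the liver, runs the route backwards through a few enzymes of its own. Most steps are served by several isozymes, which differ in tissue and in regulation. Hepatocytes are known for the transporter SLC2A2, the liver phosphofructokinase PFKL, the pyruvate kinase PKLR and the cytosolic PEPCK gene PCK1, whereas growing and tumor cells are known for SLC2A1, HK2, PFKP and PKM. The pentose phosphate pathway branches off to make NADPH and ribose. Pyruvate dehydrogenase kinases inhibit the pyruvate dehydrogenase complex, which turns pyruvate into acetyl-CoA in the mitochondrion.

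The level of a gene is given in FPKM, a read count scaled to transcript length and library size, which allows genes to be compared within a library. A change is the difference of the deposited log2(FPKM + 1) values, which understates the change of low genes. Of the 37 genes, 32 had a mean of at least 1 FPKM over the 3 libraries and enter the counts, and the other 5 were PFKFB1, FBP1, PCK1, G6PC and PDK4. With 1 library per condition no difference has a replicate check and no p-value is given. Effects of the condition, of the culture and of the library preparation cannot be told apart. The fold thresholds of 2 and 1.5 are those of the study's methods. In a culture measured in bulk, fewer cells of a type and less RNA per cell cannot be told apart either. The untreated HepG2/metR library enters both comparisons, and an error in it moves a gene in opposite directions in the comparisons.

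The labelled liver origin was seen in the parental library but not in the others. All 18 hepatocyte markers examined, such as ALB and HNF4A, were at least 10-fold lower in FPKM in HepG2/metR than in parental cells. The share of all genes past 10-fold was not counted. Their levels summed to 37777 FPKM in the parental library, 15.6 in HepG2/metR and 13.2 with oxamate, and 6 of the 18 were listed at 0 in HepG2/metR and 3 with oxamate. Of 10 mesenchymal markers, 6 were kept, and in HepG2/metR 4 of them passed 2-fold upwards and 1 downwards. Of all genes kept, 16.6% and 17.6% did. The summed level of all 10 was 1536, 2235 and 1673 FPKM in the order parental, HepG2/metR and oxamate-treated, but different genes made up the sums. FN1 (fibronectin) was listed at 1503, 45.7 and 93.7 FPKM, and VIM (vimentin) at 1.23 FPKM in the parental library and 1576 in HepG2/metR. Endothelial markers summed to at most 0.328 FPKM in any library. Of 5 leukocyte markers, CD68 alone reached 1 FPKM, and PTPRC was listed at 0.0430 FPKM or less. The part of the liver and mesenchymal programs in the results on HepG2/metR was not tested.

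**Figure D1:**
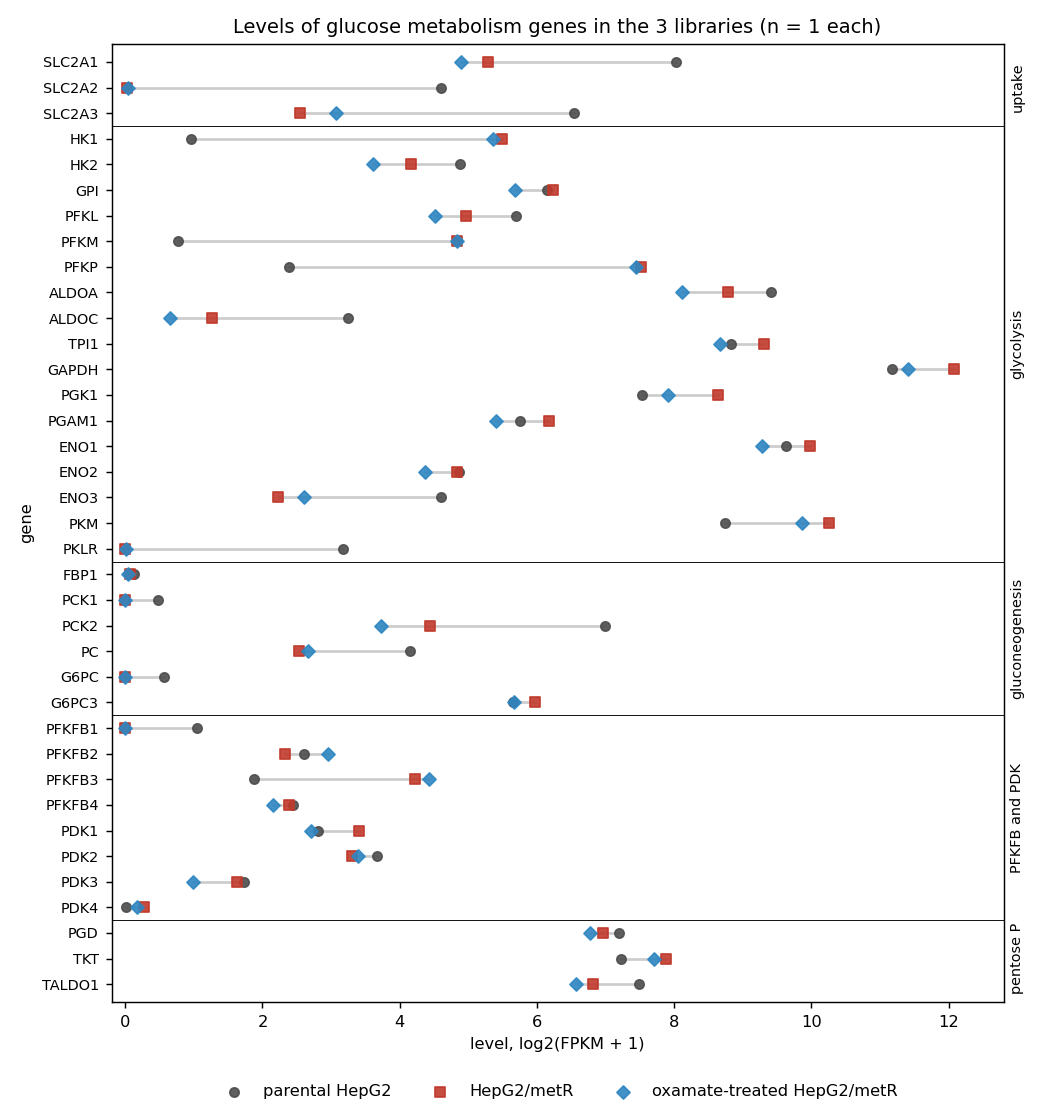
Level of each of the 37 genes as log2(FPKM + 1) on the horizontal axis, in parental HepG2 (grey circles), HepG2/metR (red squares) and oxamate-treated HepG2/metR (blue diamonds), 1 library each, with a line from the lowest to the highest value. HK1, PFKM and PFKP lie far to the right in both HepG2/metR libraries, the 3 glucose transporters far to the left, and GAPDH is the highest of the 37 in each library.

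In HepG2/metR cells other genes of the set led hexokinase and phosphofructokinase 1, and the transporters were lower. HK2 and PFKL, which led in parental cells, were less than 2-fold lower. HK1, PFKM, PFKP, PFKFB3, PGK1 and PKM were at least 2-fold higher than in parental cells. SLC2A1, SLC2A2, SLC2A3, ALDOC, ENO3, PKLR, PCK2 and PC were at least 2-fold lower. These are 6 and 8 of the 32 genes, or 18.8% and 25.0%, where 16.6% and 17.6% of the 12192 genes kept passed the same thresholds. Each share of the 32 rests on few genes. SLC2A2 and PKLR were under 1 FPKM in both HepG2/metR libraries, and HK1 and PFKM in the parental library. The filter thus kept these genes through the libraries where they were high. With equal sums of FPKM the same 14 genes passed, against 17.4% and 16.3%. Among the 750 genes with a mean of at least 100 FPKM, 13.9% were higher and 12.7% lower, and 3 and 1 of the 11 members at this level were. Over the 32 genes the log2 change had a median of -0.083 and that of all genes kept was 0.015. The sign of the median of the 32 genes depended on the scaling between libraries and was positive (0.033) under upper-quartile scaling, which moved the median of all genes kept to 0.15.

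All 3 glucose transporter genes were lower in HepG2/metR. SLC2A1, which encodes the transporter GLUT1 of growing cells, measured 261 FPKM in the parental library, 37.9 in HepG2/metR and 28.6 with oxamate. SLC2A3, which encodes the high-affinity transporter GLUT3, was listed at 92.0, 4.82 and 7.41 FPKM in the same order. SLC2A2, which encodes the hepatocyte transporter GLUT2, was listed at 23.2, 0.0227 and 0.0333 FPKM. The log2 changes in HepG2/metR were -2.75 for SLC2A1, -4.00 for SLC2A3 and -4.57 for SLC2A2. Taken over the 3 genes, 376 FPKM in parental cells stood against 42.7 in HepG2/metR, an 8.81-fold lower sum, and SLC2A1 made up 69.4% and 88.7% of it. SLC2A14, a close copy of SLC2A3 whose reads may be shared with it, was listed at 4.35 FPKM in parental cells and at 0 in the others.

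Hexokinase, which traps glucose in the cell as its 6-phosphate, was mostly HK2 transcript in parental cells and mostly HK1, of the pair, in HepG2/metR cells. HK1, the form of most adult tissues, measured 0.950 FPKM in the parental library, 44.1 in HepG2/metR and 40.2 with oxamate, a change of 4.53 on the log2 scale. Counted from the largest positive change, this was rank 147 of the 12192 genes. HK2, the inducible form of muscle and tumors, was listed at 28.4, 17.0 and 11.3 FPKM. The share of HK1 in the sum of HK1 and HK2 was 3.23% in parental and 72.2% in HepG2/metR cells, and the sum was 29.4 and 61.1 FPKM. HKDC1, a related hexokinase and no member of the set, was listed at 20.1, 52.1 and 38.2 FPKM. HKDC1 was thus above HK1 in HepG2/metR, and HK1 was the higher of HK1 and HK2 only.

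Phosphofructokinase 1, the committed step of glycolysis, also had another leading isozyme in HepG2/metR. PFKP, the platelet subunit, measured 4.22 FPKM in the parental library, 182 in HepG2/metR and 174 with oxamate. PFKM, the muscle subunit, was listed at 0.700, 27.6 and 27.5 FPKM. PFKL, the liver subunit, was listed at 50.9, 30.3 and 21.8 FPKM. PFKL thus made up 91.2% of the summed subunits in parental cells and 12.6% in HepG2/metR, and PFKP 7.57% and 75.9%. The sum of the 3 subunits was 55.8 FPKM in parental cells and 240.2 in HepG2/metR, 4.31-fold higher. The log2 change of PFKP, 5.13, was rank 88 of 12192 from the top and the largest of the 32 genes, and that of PFKM was 4.07. Without a pseudocount HK1 stood above PFKP, at 5.54 against 5.43.

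The PFKFB enzymes make and break fructose 2,6-bisphosphate, the activator of phosphofructokinase 1. PFKFB3, the form with the highest kinase activity, measured 2.65 FPKM in the parental library, 17.6 in HepG2/metR and 20.4 with oxamate, a change of 2.35 in HepG2/metR. PFKFB1, the liver form, was listed at 1.07 FPKM in parental cells and at 0 in both HepG2/metR libraries. PFKFB4 was listed at 4.45, 4.22 and 3.43 FPKM, and the sign of its change in HepG2/metR turned with the scaling. PFKFB2 was listed at 5.11, 4.04 and 6.73 FPKM, and PFKFB3 rather than PFKFB2 was the highest of the family in HepG2/metR, with 68.1% of the sum against 20.0% in parental cells.

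**Figure D2:**
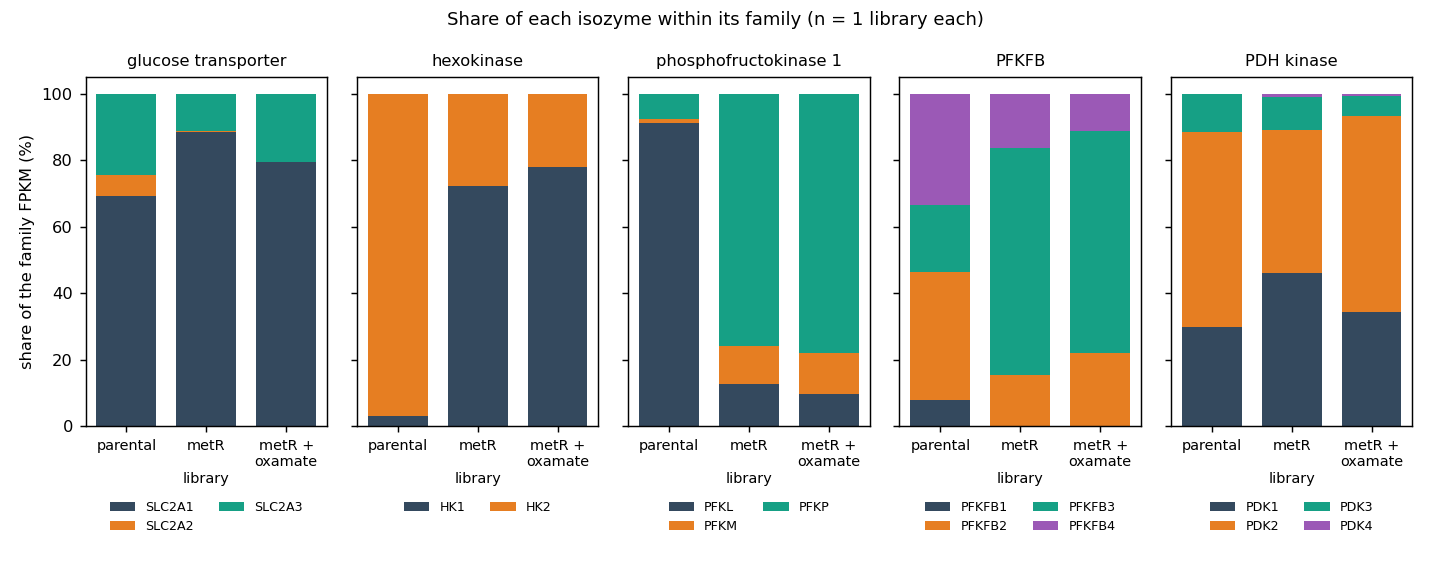
Share of each isozyme in the summed FPKM of its family (vertical axis, percent) in parental, HepG2/metR (metR) and oxamate-treated HepG2/metR (metR + oxamate) cells, 1 library per bar. HK1 went from 3.23% to 72.2% of hexokinase and PFKP from 7.57% to 75.9% of phosphofructokinase 1 between parental and HepG2/metR cells, and both shares were about as high with oxamate.

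Of the 10 families with at least 2 genes in the set, 4 had another leading isozyme in HepG2/metR than in parental cells, namely hexokinase, phosphofructokinase 1, PFKFB and pyruvate dehydrogenase kinase. For hexokinase this holds between HK1 and HK2 and leaves out HKDC1, which was above HK1 in HepG2/metR. The share of an isozyme is taken within a library and does not depend on the scaling between libraries. In the other 6 families the leading isozyme was the same and the minor ones were often lower. ALDOA, the aldolase of most tissues, led ALDOC in every library, with 679, 438 and 276 FPKM. ALDOC, the brain form, measured 8.49 FPKM in the parental library, 1.41 in HepG2/metR and 0.577 with oxamate. ENO3, the muscle enolase, was listed at 23.4, 3.70 and 5.06 FPKM, and it held at most 2.77% of the family. ENO2, the neuronal enolase, was listed at 28.2, 27.4 and 19.7 FPKM, a change in HepG2/metR whose sign turned with the scaling. PKLR, the pyruvate kinase of liver and red cells, was listed at 8.06 FPKM in parental cells, at 0 in HepG2/metR and at 0.0117 with oxamate. PKM held 98.2% of pyruvate kinase even in parental cells.

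From triose phosphate to pyruvate the main genes were higher in HepG2/metR or differed by less than 2-fold. PKM, the pyruvate kinase of tumors and most adult tissues, measured 428 FPKM in the parental library, 1220.3 in HepG2/metR and 933 with oxamate, a change of 1.51. PGK1, the phosphoglycerate kinase that yields the first ATP, was listed at 184, 396 and 239 FPKM, a change of 1.11. GAPDH, which oxidizes triose phosphate, was listed at 2308, 4303 and 2719.7 FPKM. Its change of 0.90 passed 2-fold under upper-quartile scaling alone. ENO1 was listed at 795, 1005 and 619 FPKM and TPI1 at 452, 636 and 406 FPKM. PGAM1 was listed at 52.8, 71.5 and 41.3 FPKM, and GPI, which serves an earlier step, at 70.0, 74.1 and 50.1 FPKM. ENO1, TPI1 and PGAM1 changed by 0.34 to 0.49 in HepG2/metR, and GPI by 0.08. Several of these genes, GAPDH among them, have many processed pseudogenes in the genome, and how shared reads were assigned is not given in the sources used here. The values do not separate the splice forms of PKM.

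The 17 glycolytic enzymes made up 0.912% of all FPKM in parental cells and 1.59% in HepG2/metR, and GAPDH alone made up 0.411% and 0.806%. Their sum was 5121 FPKM in the parental library, 8478 in HepG2/metR and 5583 with oxamate. The summed levels of the transporters and of the enzymes thus differed in opposite directions between the parental and HepG2/metR libraries. GAPDH made up 2308 FPKM of the enzyme sum in parental cells and 4303 in HepG2/metR. Gene by gene the enzymes went both ways, with 10 of the 17 higher and 7 lower, ALDOA among the 7.

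Of the 6 genes of gluconeogenesis, PCK2 and PC passed 2-fold downwards in HepG2/metR, G6PC3 lay within 2-fold, and the other 3 were under 1 FPKM in every library. PCK2, the mitochondrial PEPCK, measured 126 FPKM in the parental library, 20.8 in HepG2/metR and 12.2 with oxamate, a change of -2.55 in HepG2/metR. PC, pyruvate carboxylase, which feeds the route with oxaloacetate, was listed at 16.7, 4.80 and 5.31 FPKM, a change of -1.61. PCK1, the cytosolic PEPCK of liver and kidney, was listed at 0.396 FPKM in parental cells and G6PC, the glucose 6-phosphatase of liver, at 0.474, and both were listed at 0 in the other libraries. Both liver enzymes were thus under 1 FPKM in parental HepG2 cells already. FBP1, which opposes phosphofructokinase 1, stayed at 0.0964 FPKM or less in every library. G6PC3, the phosphatase form of most tissues, was listed at 49.5, 62.0 and 50.0 FPKM.

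On the log2(FPKM + 1) scale, the pyruvate dehydrogenase kinases and pentose phosphate enzymes stayed within 2-fold between parental and HepG2/metR cells. PDK1 measured 6.03 FPKM in the parental library, 9.65 in HepG2/metR and 5.51 with oxamate. PDK2 was listed at 11.8, 8.92 and 9.46 FPKM, so that PDK1 led the family in HepG2/metR by 46.3% to 42.7% and PDK2 led it in the other libraries. PDK3 was listed at 2.31, 2.08 and 0.975 FPKM, with a sign in HepG2/metR that turned with the scaling, and its FPKM was 2.13-fold lower with oxamate than without. PDK4 was listed at 0.0117, 0.212 and 0.123 FPKM, too low to be kept. The 3 pentose phosphate genes did not move in 1 direction. TKT, transketolase, was listed at 149, 235 and 208 FPKM. PGD, which releases NADPH, was listed at 145, 124 and 108 FPKM. TALDO1, transaldolase, was listed at 178, 112 and 93.6 FPKM. The summed level of the 3 pentose phosphate genes was nearly the same in parental and HepG2/metR cells, at 471.7 and 470.9 FPKM.

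Oxamate for 24 h was followed by lower levels from aldolase to enolase. ALDOA, ALDOC, TPI1, GAPDH, PGK1, PGAM1, ENO1, PCK2, PDK1 and PDK3 were at least 1.5-fold lower than in untreated HepG2/metR cells, and PFKFB2 was at least 1.5-fold higher. These are 10 of the 32 genes (31.2%) lower, where 3.82% of the 12192 genes kept were, and 1 of the 32 higher, where 4.31% were. With all libraries brought to an equal sum of FPKM, 1 of the 32 genes, PGAM1, was at least 1.5-fold lower, against 1.57% of all genes, and 2 were higher, PFKFB2 and SLC2A3, against 9.71%. This scaling moved the median of all genes kept from 0.021 to 0.17. Relative to that median, the median of the 32 genes was -0.37 as deposited and -0.34 with equal totals. Highly expressed genes as a whole were lower with oxamate. Of the 750 genes with a mean of at least 100 FPKM, 12.3% were at least 1.5-fold lower and their median change was -0.28. Among them were 11 of the 32 genes, of which 5 were at least 1.5-fold lower, with a median of -0.39. With equal totals the median was -0.11 for the 750 genes and -0.22 for the 11. Of the 750 genes, 1.2% were at least 1.5-fold higher, and 0 of the 11 were. The part of expression level in the lower values was not tested.

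The changes of the glycolytic enzymes with oxamate ran from -0.77 to 0.37. Of the 17, 15 were below 0 and the median was -0.55, and with equal totals 12 were below 0 with a median of -0.38. As deposited, 5557 of the 12192 genes kept were below 0, and 635 of the 750 genes with a mean of at least 100 FPKM. With equal totals these counts were 3465 and 498. Among the 17, those above 0 as deposited were ENO3, at 0.37, and PKLR, which was listed near 0 in both libraries. On the log2(FPKM + 1) scale PGAM1, phosphoglycerate mutase, had the lowest value, -0.77. PGK1 followed with -0.73, ENO1 with -0.70, ALDOA with -0.67, GAPDH with -0.66 and TPI1 with -0.65. The level of each of these 6 genes was 1.57-fold to 1.73-fold lower. ALDOC, a low gene, was at -0.61 on this scale but had the largest difference as a ratio of FPKM, 2.45-fold, and without a pseudocount it was at -1.29 against -0.79 for PGAM1. GPI and HK2 stood just short of the threshold, at -0.56 and -0.55, and PFKL and ENO2 were both at -0.46. PKM was at -0.39. The genes with the largest positive changes in HepG2/metR differed little with oxamate. PFKP was at -0.07, PFKM at -0.01 and HK1 at -0.13, and all 3 values turned positive with equal totals, that of PFKM also under upper-quartile scaling. Their isozyme shares were therefore much the same with and without oxamate, PFKP holding 77.9% and HK1 78.1% with it.

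**Figure D3:**
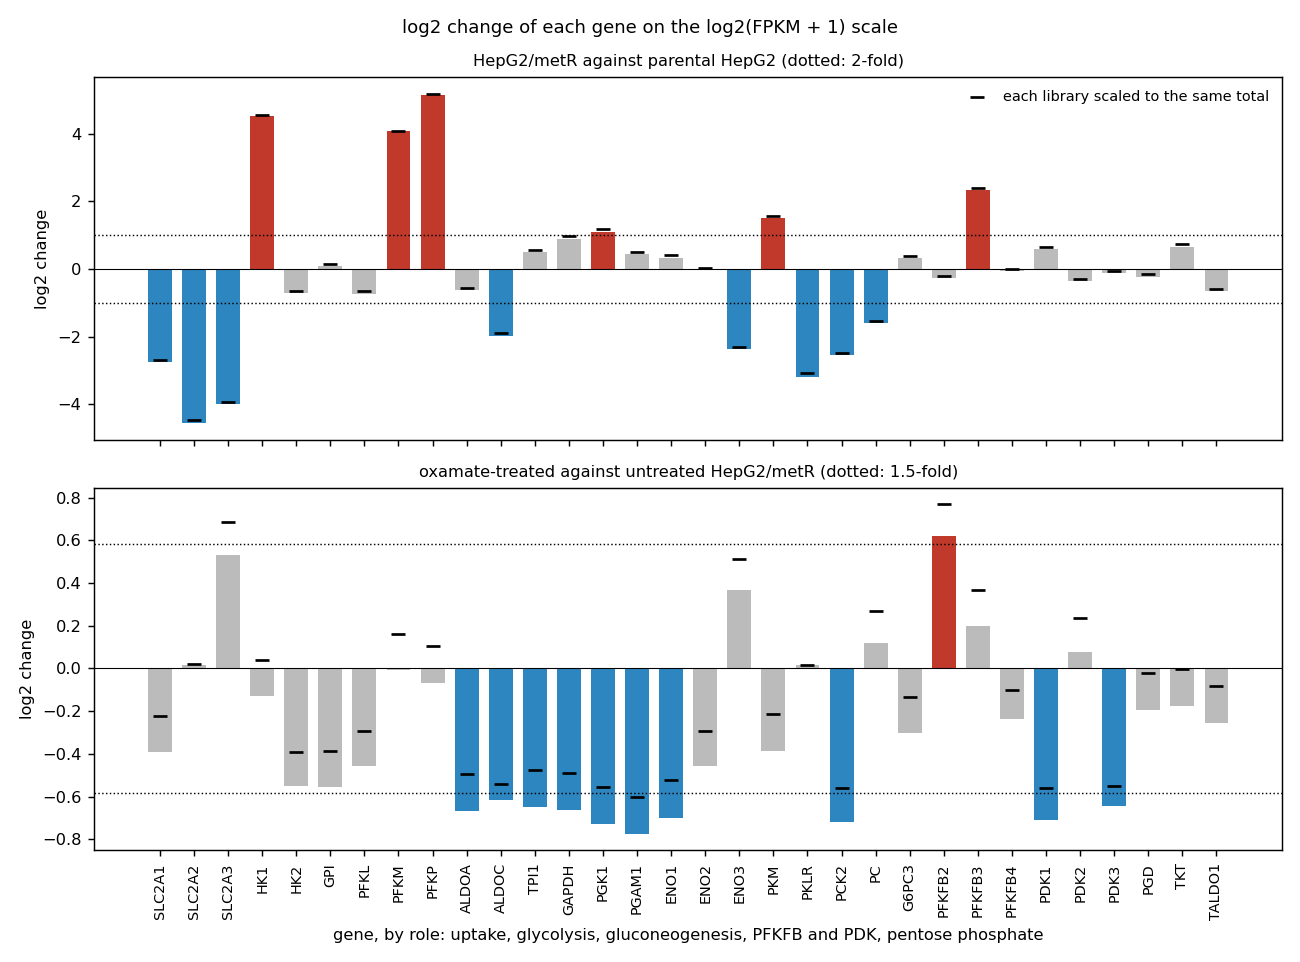
log2 change (vertical axis, on the log2(FPKM + 1) scale) of the 32 genes kept, HepG2/metR against parental cells above and oxamate-treated against untreated HepG2/metR below, with different vertical scales. Bars are red at or above the dotted fold threshold, blue at or below it and grey between. Black dashes give the change with equal library totals, with which 9 of the 10 genes lower with oxamate no longer reach the threshold.

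Outside glycolysis, PCK2 changed by -0.72 with oxamate, PDK1 by -0.71 and PDK3 by -0.64. The pentose phosphate genes TKT, PGD and TALDO1 changed by -0.18 to -0.25. PFKFB2, the heart form of its family, changed by 0.62. SLC2A3 changed by 0.53 and SLC2A1 by -0.39. PC and PDK2 differed little, with 0.12 and 0.08. PGK1 was the 1 gene both at least 2-fold higher in HepG2/metR and at least 1.5-fold lower with oxamate, and ALDOC and PCK2 were past both thresholds downwards. Of the 10 lower genes, the other 7 did not pass 2-fold in HepG2/metR. With equal totals the oxamate changes of PGK1, ALDOC and PCK2 were -0.56, -0.54 and -0.56, all short of 1.5-fold. How many of all genes kept were past both thresholds was not counted.

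**Figure D4:**
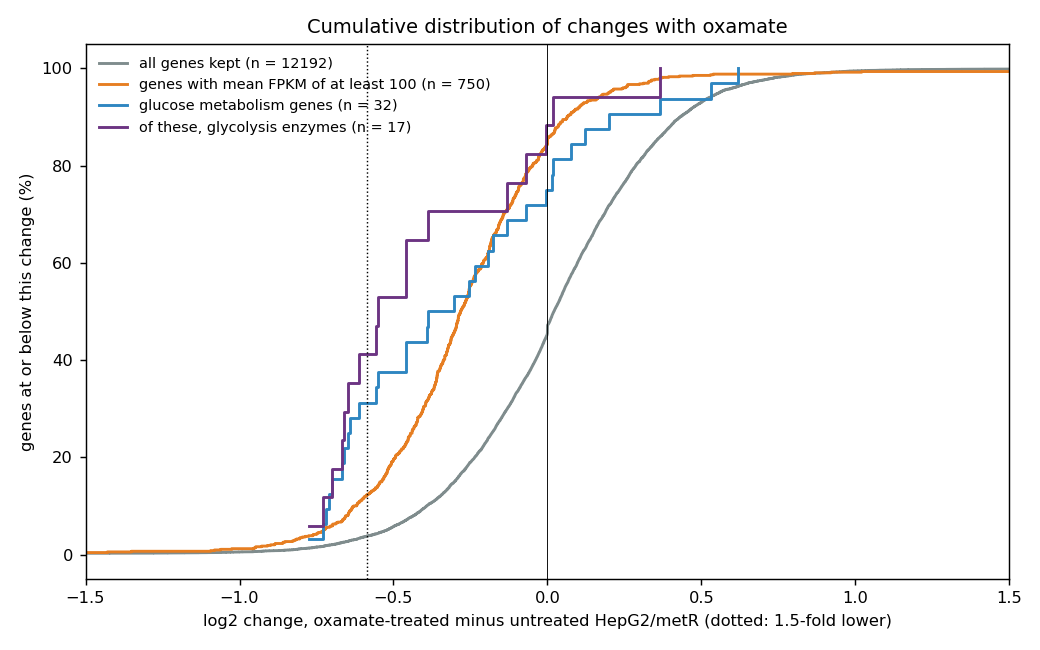
Cumulative share of genes (vertical axis, percent) at or below a given log2 change with oxamate (horizontal axis) for all 12192 genes kept, the 750 with a mean of at least 100 FPKM, the 32 glucose metabolism genes and the 17 glycolytic enzymes among them. The curve of the 17 enzymes, with a median of -0.55, lies to the left of that of the 750 highly expressed genes, with a median of -0.28, over its lower part. The horizontal axis is limited to changes from -1.5 to 1.5, and genes outside it are counted but not drawn.

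The promoters of genes that were lower together with oxamate are shown for the letters ACGTG and GCGTG, the core bound by hypoxia-inducible factors, which are known regulators of glycolytic genes. The 250 bases before the start were taken from RefSeq on GRCh38.p14, at the first start listed for each gene, and are printed in the direction of the gene with either core, on either strand, in capitals. The deposited values were made on hg19, and no coordinate of that build is used. PGK1 and ALDOC are shown as genes with several cores, ENO1 as a highly expressed enzyme, and PGAM1 as the gene with the lowest log2(FPKM + 1) change with oxamate.
PGK1 (chrX:78103998-78104247, plus strand): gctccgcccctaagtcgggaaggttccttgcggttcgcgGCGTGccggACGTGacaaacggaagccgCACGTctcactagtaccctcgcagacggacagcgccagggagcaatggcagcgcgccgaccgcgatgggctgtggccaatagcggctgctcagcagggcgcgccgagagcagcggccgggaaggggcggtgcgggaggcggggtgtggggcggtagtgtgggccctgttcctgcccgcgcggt
ALDOC (chr17:28576896-28577145, minus strand): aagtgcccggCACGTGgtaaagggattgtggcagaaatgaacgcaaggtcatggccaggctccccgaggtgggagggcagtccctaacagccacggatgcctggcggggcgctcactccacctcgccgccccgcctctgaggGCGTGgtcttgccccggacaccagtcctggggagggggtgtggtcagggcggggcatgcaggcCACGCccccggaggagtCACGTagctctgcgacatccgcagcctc
ENO1 (chr1:8878687-8878936, minus strand): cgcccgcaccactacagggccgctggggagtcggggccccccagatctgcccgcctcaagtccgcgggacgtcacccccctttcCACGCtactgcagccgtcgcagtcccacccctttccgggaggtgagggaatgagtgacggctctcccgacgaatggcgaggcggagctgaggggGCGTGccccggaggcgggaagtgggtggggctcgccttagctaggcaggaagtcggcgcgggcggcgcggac
PGAM1 (chr10:97427568-97427817, plus strand): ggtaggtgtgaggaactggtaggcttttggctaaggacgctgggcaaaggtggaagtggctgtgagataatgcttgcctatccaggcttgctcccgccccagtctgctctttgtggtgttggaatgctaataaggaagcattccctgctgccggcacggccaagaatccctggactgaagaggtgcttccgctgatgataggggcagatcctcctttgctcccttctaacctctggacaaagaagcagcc

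PGK1 held 3 cores, between 211 and 179 bases before its start. ENO1 held 2 and PGAM1 none in this window. In ALDOC a run of CACGTG, a palindrome, reads as ACGTG on both strands. Either core was found in 19 of the 34 members with a promoter in the table (55.9%) and in 43.1% of the promoters of 27305 genes. It was found in 6 of the 10 genes lower with oxamate and in 13 of the other 24. Taken singly, ACGTG was in 38.2% of the 34 against 18.7% of all promoters, and GCGTG in 32.4% against 31.9%. The letters GGGCGG, which hold neither core, were in 64.7% against 42.3%. The part of base composition in these shares was not tested. A match describes the letters only and is no sign of binding. SLC2A3, PFKFB2 and PCK1 had no entry in the table.

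Further genes around these pathways were taken from a list of related isozymes, transporters, glycogen enzymes and pyruvate dehydrogenase genes, of which 67 were found and 49 kept. In HepG2/metR, 4 of the 49 passed 2-fold upwards (8.16%) and 18 passed it downwards (36.7%), where 16.6% and 17.6% of all genes kept did. Sugar transporters accounted for 7 of the 18, out of 8 kept. MPC1, a subunit of the carrier that takes pyruvate into mitochondria, measured 139 FPKM in the parental library, 9.32 in HepG2/metR and 10.5 with oxamate. PDP1, a phosphatase that reverses the action of the pyruvate dehydrogenase kinases, was listed at 1.73, 17.6 and 20.9 FPKM. Genes of the pyruvate dehydrogenase complex itself stayed within 2-fold, PDHA1 for example with 34.8, 47.0 and 41.1 FPKM. KHK, which starts fructose metabolism, was listed at 26.9 FPKM in the parental library and 2.70 FPKM in HepG2/metR. SLC2A9, a urate transporter, was listed at 22.6 FPKM in parental cells and at 0 in the others. SLC2A8, a sugar transporter of internal membranes, was listed at 29.5, 3.60 and 3.82 FPKM. GYG2, a glycogenin, which primes glycogen, was listed at 10.0, 0.0246 and 0.0120 FPKM. H6PD, a pentose phosphate enzyme of the endoplasmic reticulum, was listed at 8.30, 1.13 and 1.86 FPKM.

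With oxamate, 0 of the 49 related genes were at least 1.5-fold lower and 3 were at least 1.5-fold higher, namely SLC2A10, PGM2L1 and PDP2. Over all genes kept the shares were 3.82% lower and 4.31% higher, and the 3 genes are 6.12% of the 49. PDP2, the other phosphatase of the complex, was listed at 7.31 FPKM without and 13.6 with oxamate. The median change of the 49 was -0.04, against -0.35 for the 32 genes of the main pathway. For the 21 of these 32 genes with a mean under 100 FPKM it was -0.24. The part of expression level in this difference was not tested.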

How the data were processed

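Total RNA was sequenced on an Illumina NextSeq from 3 cultures (untreated HepG2, HepG2/metR, and HepG2/metR with oxamate), with 1 library per condition. The authors deposited 1 log2 value per gene symbol and library, which the values show to be log2(FPKM + 1). The submitters' processing notes list STAR 2.5.1b, FastQC 0.11.5, Cufflinks 2.2.1 and hg19. The annotation is not given in the sources used here. Of 25270 symbols, 28 had become dates and were left out. The number of reads is unknown. From the smallest values, the HepG2/metR and oxamate-treated libraries were 1.21 and 1.24 times as deep as the parental one. No interval can be given, so small differences cannot be told from counting error, above all under 1 FPKM.

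Values were used without further scaling, and genes with a mean of at least 1 FPKM were kept. Changes are differences of the deposited values. They were read against 2-fold (HepG2/metR) and 1.5-fold (oxamate, 0.58 on the log2 scale) thresholds, beside the same counts over all genes kept. No test was run. Members and gene lists were chosen with earlier results of these data known. Genes past a threshold or with an isozyme in the set are given with all values. Related genes were named from those that complete a family or are past 4-fold in HepG2/metR or 1.5-fold with oxamate, and some of these are not reported here. GPI, FBP1, PGD, TKT, TALDO1, PDHA1, HIF1A and the cell type markers fall outside this rule and were named after their values were seen. The calculation was tested on simulated data. Alternatives were pseudocounts of 0.1 and none, no filter or a mean of at least 5 FPKM, other scalings and other thresholds. A mean of at least 100 FPKM was added after seeing the data. Python 3.11, numpy 2.4.6 and pandas 2.3.3 were used.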

Additional observations from a re-analysis of the deposited data

How the results depend on the processing

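No paired analysis was possible because each condition has 1 library, and no library could be left out. In HepG2/metR against parental cells, none of the 14 genes past 2-fold fell short of it under another pseudocount or scaling, apart from PKLR, which has no value without a pseudocount because it is listed at 0. The median of the 32 genes was 0.033 under upper-quartile scaling and 0.022 at a mean of at least 5 FPKM. At a mean of at least 100 FPKM, chosen after seeing the data, 3 genes were higher and 1 lower, with a median of 0.49.

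The oxamate results depended on the scaling and the threshold. With equal totals 1 gene was lower and 2 were higher, and the median of the 32 was -0.17. At 2-fold, 0 were lower and 0 higher, against 0.525% and 0.541% of all genes. The higher genes numbered 2 of 32 with a pseudocount of 0.1 (8.33% of all genes) and 2 of 31 with none (9.36%). At a mean of at least 100 FPKM, 5 of 11 were lower and 0 higher, against 12.3% and 1.2%. Without a filter the median was -0.24. Of the 32 genes, 9 lay within 0.10 of the log2 threshold. Of 37 related genes with a mean of at least 5 FPKM, 9 were lower in HepG2/metR (15.9% of all genes). With oxamate, 1 of the 37 was higher (3.03%). The count higher with oxamate was 6 of 49 with a pseudocount of 0.1 (8.33%) and 7 of 47 with none (9.36%). It was 5 of 49 with equal totals (9.71%) and 0 at 2-fold (0.541%). The count lower was 1 and 4 with these pseudocounts, against 4.98% and 5.25% of all genes. None of the 382 recomputed single-gene values changed the sign of a called change. The leading isozymes did not depend on the filter.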

Other observations

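Levels of 20 genes known to regulate glucose metabolism were read beside those of the enzymes, and 19 were kept. Set against parental cells, HepG2/metR had 11 of the 19 at least 2-fold lower and 0 at least 2-fold higher (17.6% and 16.6% over all genes kept), and the liver regulators accounted for 8 of the 11, out of 9 kept. HNF4A, a regulator of hepatocyte genes, measured 68.7 FPKM in the parental library, 0.0156 in HepG2/metR and 0.0153 with oxamate. MLXIPL, which encodes the glucose-sensing factor ChREBP of liver, was listed at 31.4, 0.0336 and 0.0438 FPKM. PPARGC1A, a coactivator of gluconeogenic genes, was listed at 3.77 FPKM in parental cells, 0 in HepG2/metR and 0.0161 with oxamate. The hypoxia-inducible factor genes parted, with EPAS1 at 56.0, 1.19 and 1.36 FPKM and HIF1A at 70.7, 85.1 and 95.3 FPKM.

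With oxamate, MYC, a known activator of glycolytic genes, was the 1 regulator at least 1.5-fold lower, at 74.7 FPKM without and 46.7 with it, a change of -0.67. TXNIP, which restrains glucose uptake, was the 1 regulator at least 1.5-fold higher, at 43.4 and 70.5 FPKM, a change of 0.69. Over all genes kept, 3.82% were lower and 4.31% higher with oxamate. The regulators were read as deposited and not under the other scalings, on which the calls of the enzymes with oxamate depended. These are values of single libraries, and whether they bear on the enzymes was not tested.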
